A study of Mus musculus with 12 samples.

Results

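The insulin-like growth factor (IGF) system was examined through 10 genes of the expression table, chosen by their gene names: the growth factors Igf1 and Igf2, the receptors Igf1r and Igf2r, and the binding proteins Igfbp2, Igfbp3, Igfbp4, Igfbp5, Igfbp6 and Igfbp7. All 10 were among the 29428 genes of the table, and 9 of them were among the 16127 genes that were tested after a filter of at least 0.5 TPM, a level scaled for transcript length and depth, in at least 3 libraries. Igf2 did not pass this filter. Igf1 passed it only through libraries of STHdhQ7 cells, mainly nontreated ones, so that lower levels in STHdhQ111 cells and in treated STHdhQ7 cells were built into its passing. Igfbp5 reached 0.5 TPM in all 6 STHdhQ7 libraries and in 1 STHdhQ111 library, and so would not have passed on STHdhQ111 libraries alone.

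STHdhQ7 and STHdhQ111 cells are immortal mouse striatal cell lines, one labelled as normal and the other carrying huntingtin with the expanded glutamine tract that causes Huntington's disease on both alleles. The study asked how the transcriptomes of both lines respond to a neuroinflammatory challenge. The 12 libraries fall into 4 groups of 3: nontreated STHdhQ7/Q7 cells (Q7-C), STHdhQ7/Q7 cells after 24 h of IFNγ at 100 ng/mL together with LPS at 5 μg/mL (Q7-T), nontreated STHdhQ111/Q111 cells (Q111-C), and STHdhQ111/Q111 cells after the same treatment (Q111-T). Each genotype is represented by 1 cell line, so genotype and line cannot be told apart, and all groups shared the immortalization and the culture conditions. The study calls the libraries of a group biological replicates, but the labels do not say whether they came from separate cultures, so p-values measure the spread between these libraries.

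Depth ran from 57505990 to 96417834 estimated counts a library. In low genes, multiples of 4 were 1.69 to 2.12 times as frequent as neighbouring even counts, so that 1 read pair appears to stand for about 4 estimated counts, and a count of 12 or less was taken as not detected. Of markers fixed for cell types, all 8 mesenchymal markers reached 1 TPM and their summed level was 1743 to 5231 TPM. Single markers differed between the lines in opposite directions, with mean levels in Q7-C and Q111-C of 1670 and 43.7 TPM for Acta2, 80.7 and 2.37 TPM for Tagln, 14.6 and 250.2 TPM for Col1a2, and 27.7 and 136 TPM for Col3a1. Of the 5 neuronal markers that had a row, 3 reached 1 TPM, with sums of 94.3 to 168 TPM in Q7 and 9.85 to 34.9 TPM in Q111 libraries, while Snap25 and Syt1 stayed near 0, so the neuronal label was only partly borne by these markers. None of 5 endothelial and 3 oligodendrocyte markers reached 1 TPM. Of 6 astrocyte markers 2 reached it (sums of 1.05 to 11.1 TPM), of 5 microglial and macrophage markers 1 did (Tmem119, sums of 3.07 to 20.5 TPM) while Ptprc stayed near 0, and of 4 medium spiny neuron markers 2 did (sums of 0.173 to 6.80 TPM). These levels and sums differed between the groups along with members such as Igfbp5, Igfbp6 and Igfbp7, and the part of such differences in the results was not tested. Nos2, Irf1, Cxcl10 and Gbp2, from the genes fixed as a check of the treatment, rose in both lines by 3.61 to 8.90 on the log2 scale. In bulk RNA, fewer cells of a kind and less RNA per cell cannot be told apart.

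IGF1 and IGF2 are small secreted proteins related to insulin. IGF1 acts through the IGF1 receptor, a tyrosine kinase that signals through insulin receptor substrates and AKT to growth and survival. IGF2 binds the same receptor, while the IGF2 receptor, which is also the cation-independent mannose 6-phosphate receptor, carries it to lysosomes for degradation. The binding proteins are secreted carriers that hold most extracellular IGF, limit its access to the receptor or deliver it when they are cleaved by proteases, and some act on cells without IGF. In the brain, IGF1 is known as a survival factor for neurons.

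The binding proteins share a cysteine-rich amino-terminal domain. The pattern glycine, cysteine, glycine, cysteine, cysteine, any 2 residues, cysteine was searched in the longest complete coding sequence of each member in GENCODE M21. It was found in Igfbp2 (chr1:72824778-72824801, plus strand), Igfbp3 (chr11:7213566-7213589, minus strand), Igfbp4 (chr11:99041650-99041673, plus strand) and Igfbp5 (chr1:72873966-72873989, minus strand), and not in these letters in Igfbp6, Igfbp7, the ligands or the receptors. Its codons on GRCm38 are shown 5′ to 3′ on the coding strand because they mark a motif shared by Igfbp2, Igfbp3, Igfbp4 and Igfbp5, with the codons of cysteine in capitals.
Igfbp2: ggcTGCggcTGCTGCtccgtgTGC
Igfbp3: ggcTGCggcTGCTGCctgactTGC
Igfbp4: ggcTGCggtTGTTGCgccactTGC
Igfbp5: ggcTGTggcTGCTGCatgactTGC

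Igfbp2 (ENSMUSG00000039323, chr1:72824503-72852474, plus strand) and Igfbp5 (ENSMUSG00000026185, chr1:72857932-72874884, minus strand) are neighbours that lie tail to tail with 5457 bases between them. Igfbp3 (ENSMUSG00000020427, chr11:7206086-7213923, minus strand) and Igfbp4 (ENSMUSG00000017493, chr11:99041244-99054392, plus strand) lie on the same chromosome, far from each other. The others are Igfbp6 (ENSMUSG00000023046, chr15:102144362-102149511, plus strand), Igfbp7 (ENSMUSG00000036256, chr5:77349240-77408041, minus strand), Igf1 (ENSMUSG00000020053, chr10:87858265-87937042, plus strand), Igf2 (ENSMUSG00000048583, chr7:142650766-142666816, minus strand), Igf1r (ENSMUSG00000005533, chr7:67952827-68233668, plus strand) and Igf2r (ENSMUSG00000023830, chr17:12682406-12769664, minus strand). Annotated genes on the opposite strand overlap Igf1 (Igf1os), Igf2 (Igf2os), Igf2r (Airn) and Igfbp7 (Gm34648 and Polr2b). The libraries were stranded, and whether strand was used in the quantification is not given in the sources used here.

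The members differed widely in level, and the order of their TPM differed between the groups. In Q7-C cells Igfbp7 (23.0 ± 5.72 TPM, SD, n = 3) and Igfbp6 (20.9 ± 3.46 TPM) were highest and did not differ beyond their spread, and all 3 Igfbp6 values lay above those of Igf2r (10.2 ± 4.18 TPM). Igf2r, Igfbp5, Igf1r and Igfbp3 followed in that order, each overlapping the next, and Igfbp3 lay above Igf1. Igf1, Igfbp2 and Igfbp4 were between 2.34 and 3.75 TPM in every Q7-C library and overlapped in that order.

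In Q7-T cells Igfbp7 (33.4 ± 11.96 TPM) and Igfbp3 (26.7 ± 11.4 TPM) were highest. Neighbours in the order overlapped from Igfbp7 down to Igfbp2, below which Igfbp4, Igf1 and Igf2 stood apart from one another. In Q111-C cells the order was clearer: Igfbp6 (164 ± 13.3 TPM) lay above Igfbp7 (90.1 ± 6.09 TPM), which lay above Igf2r (22.5 ± 4.96 TPM) and Igfbp3 (17.3 ± 1.20 TPM), which overlapped. Igfbp3 lay above Igf1r, which overlapped Igfbp2, as Igfbp2 did Igfbp4. Igfbp4 was separated from Igfbp5, Igf2 and Igf1 at the bottom. In Q111-T cells Igfbp7 (165 ± 51.3 TPM) stood above Igfbp6 (46.7 ± 2.75 TPM), and the lower part of the order was Igf2r with Igfbp3, then Igf1r, Igfbp4 and Igfbp2 without overlap, then Igfbp5, Igf1 and Igf2.

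**Figure D1:**
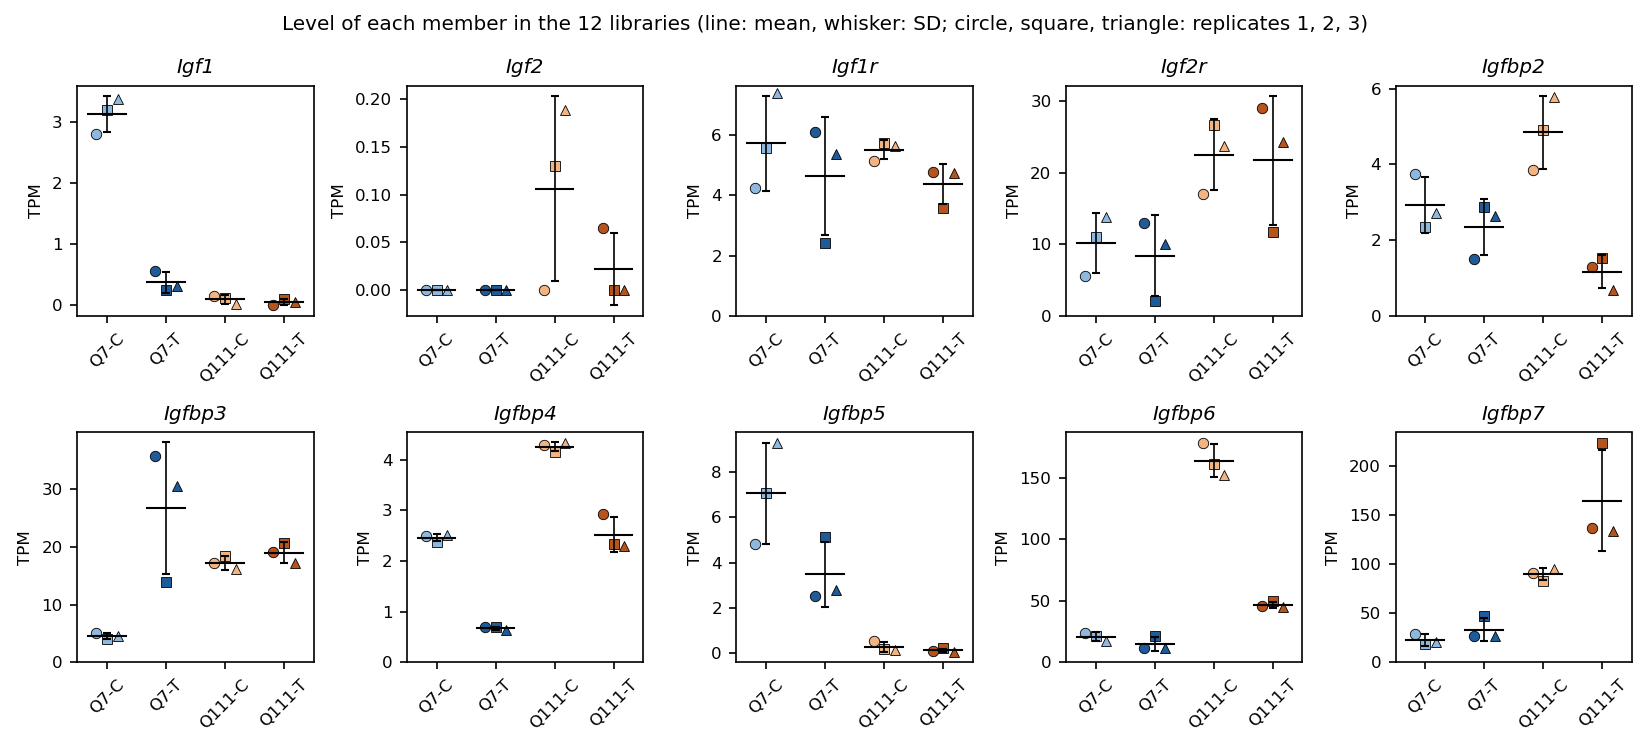
TPM of the 10 IGF system genes in each of the 12 libraries, with a panel and its own linear axis for each gene, a point for each library (circle, square and triangle for replicates 1, 2 and 3), a line at the group mean and a whisker of 1 SD. Igf1 was above 2.7 TPM only in the 3 Q7-C libraries, Igfbp5 was above 2 TPM only in Q7 libraries, and Igfbp6 was at 152 TPM or more only in the 3 Q111-C libraries.

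In Q111-C vs. Q7-C, 3 members were higher and 2 lower by at least 2-fold with an adjusted p under 0.05, which was the case for 7.62% (higher) and 7.61% (lower) of all genes tested. Igfbp6, Igfbp7 and Igfbp3 rose, and Igf1 and Igfbp5 fell. The 3 libraries of one line all lay above those of the other for 8 members, as they did for 51.4% of all genes tested. After treatment, Q111-T vs. Q7-T, 3 members were higher (Igfbp4, Igfbp6, Igfbp7) and 3 lower (Igf1, Igfbp2, Igfbp5), against 13.3% and 11.2% of all genes tested, and 5 members did not overlap, against 46.3%. With treatment of Q7 cells, 1 member was higher (Igfbp3) and 1 lower (Igfbp4), against 2.93% and 1.11% of all genes, and 3 did not overlap, against 14.4%. In Q111-T vs. Q111-C, 0 members were higher and 2 lower (Igfbp2 and Igfbp6), against 8.28% and 2.96%, and 5 did not overlap, against 49.6%. For the count of 0, edgeR gave an unadjusted p under 0.05 for 1 higher member (Igfbp7), and DESeq2 and limma called 0.

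**Figure D2:**
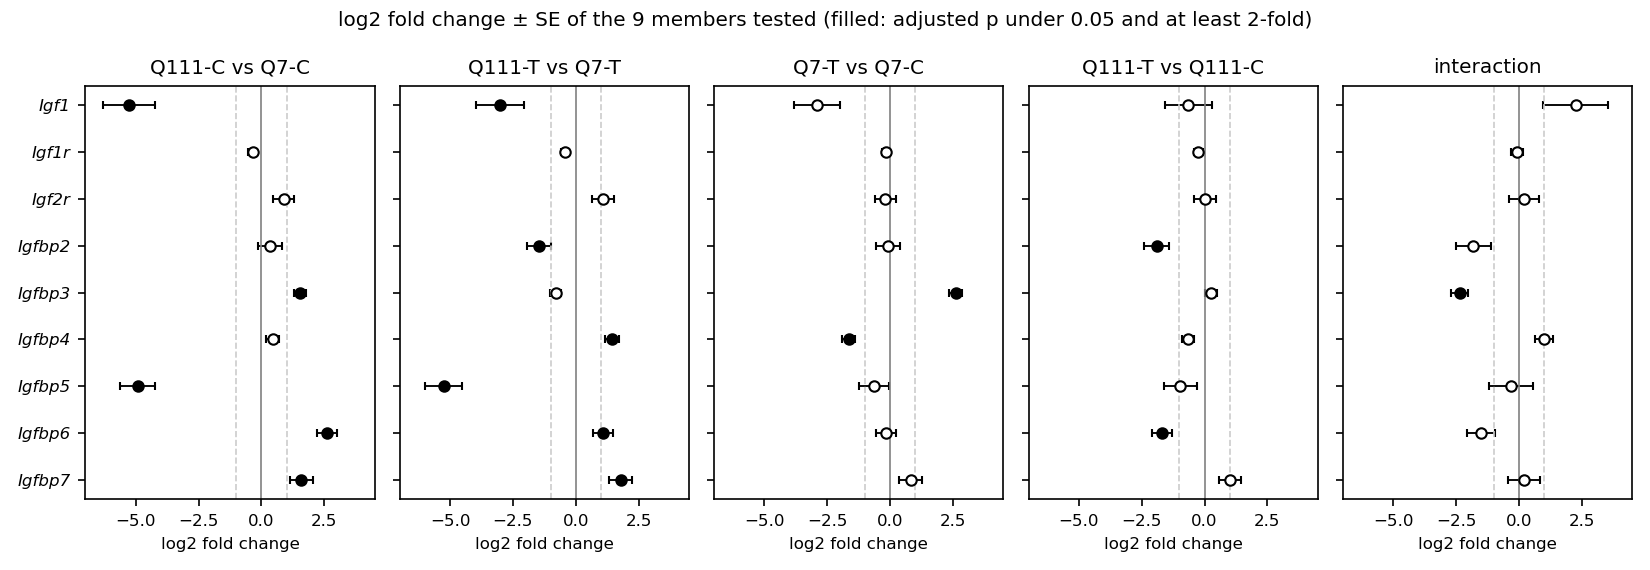
Log2 fold change (horizontal axis) with its standard error for the 9 members tested in the 4 pairwise comparisons and in the interaction of line and treatment. Filled points passed the test and open points did not, and dashed lines mark a 2-fold difference; Igfbp3 has a filled point between the nontreated lines, with treatment in Q7 and in the interaction.

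Of the ligands, Igf1 was found mainly in nontreated STHdhQ7 cells. Its level was 2.80, 3.19 and 3.37 TPM in Q7-C, against 0.566, 0.247 and 0.322 TPM in Q7-T. It was 0.160, 0.125 and 0.0158 TPM in Q111-C, and 0, 0.108 and 0.0602 TPM in Q111-T. The Q7-C libraries all stood above the Q7-T libraries, and these above every Q111 library. In Q111 the values rest on few reads, with 6 to 50 estimated counts in Q111-C and 0 to 37 in Q111-T.

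Igf1 fell in Q111-C vs. Q7-C by 5.26 on the log2 scale (SE 1.02), with an adjusted p of 0.00287 by the quasi-likelihood test of edgeR with adjustment by Benjamini-Hochberg. On the limma scale of log2(TPM + 1) this difference was -1.90, which understates changes of low genes. It also fell in Q111-T vs. Q7-T, by 3.00 (SE 0.959, edgeR adjusted p = 0.0287), a call that was lost in 5 of 26 alternatives, among them the fits without Q7-T replicate 1 (-2.78, adjusted p = 0.0565) and without Q111-T replicate 3 (-2.95, adjusted p = 0.0845). The others were a fit of only these groups (-2.97, adjusted p = 0.0947) and limma on log2(TPM + 0.5) and log2(TPM + 1), at -0.65 and -0.38, which is under 2-fold. Without Q111-T replicate 2 the log2 fold change was -4.11, and the call held. Treatment of Q7 cells gave a log2 fold change of -2.90 (SE 0.908), and although the groups did not overlap the adjusted p was 0.111 in the edgeR fit of all 12 libraries. This difference did pass in 7 of 26 alternatives, with adjusted p-values of 0.0020 in a fit of the Q7 libraries alone, 0.0138 in DESeq2, 3.12e-05 in limma on log2(TPM + 0.5) and 0.0237 without Q111-T replicate 1. Igf1 reached the 0.5 TPM of the filter in every Q7-C library and besides only in Q7-T replicate 1. A higher level in Q7-C was thus built into its passing. Between Q111-C and Q111-T the log2 fold change was -0.64 (edgeR adjusted p = 0.739), with -1.79 without Q111-T replicate 2 and -0.049 without Q111-T replicate 1.

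Igf2, the growth factor of fetal life and an imprinted gene, was at or near the limit of detection. It was listed at 0 TPM in all 3 Q7-C libraries and in 2 of 3 Q7-T libraries, the other having 1 estimated count. In Q111-C it had 0, 26 and 42 estimated counts, and in Q111-T 14, 0 and 0. Only these 3 Q111 libraries exceeded the floor of 12 counts, the highest at 0.188 TPM.

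Neither receptor passed the test in any comparison of the fit of all 12 libraries. Igf1r, the signalling receptor, was at 4.24, 5.55 and 7.38 TPM in Q7-C and 6.11, 2.42 and 5.37 TPM in Q7-T. It was at 5.15, 5.74 and 5.64 TPM in Q111-C and 4.77, 3.59 and 4.75 TPM in Q111-T. The groups overlapped except Q111-C and Q111-T, and no difference passed the test in edgeR, with log2 fold changes from -0.42 to -0.17 in the 4 pairwise comparisons and adjusted p-values between 0.0658 and 0.719.

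Igf2r, the receptor that clears IGF2 and sorts lysosomal enzymes, was at 5.60, 11.1 and 13.8 TPM in Q7-C, and at 17.0, 26.7 and 23.8 TPM in Q111-C. After treatment it was at 13.03, 2.10 and 10.0 TPM in Q7-T and at 29.1, 11.7 and 24.4 TPM in Q111-T. All Q111-C libraries stood above the Q7-C libraries, whereas the treated groups overlapped. The log2 fold change was 0.88 (SE 0.422) in Q111-C vs. Q7-C and 1.09 (SE 0.424) in Q111-T vs. Q7-T, and neither passed (edgeR, Benjamini-Hochberg adjusted p = 0.174 and 0.0628). The second did pass in 3 of 26 alternatives, DESeq2 (adjusted p = 0.0259) and the fits without Q7-T replicate 1 (1.44, adjusted p = 0.0320) or Q111-T replicate 2 (1.35, adjusted p = 0.0405). It was 0.71 (adjusted p = 0.107), under 2-fold, without Q7-T replicate 2.

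Part of the spread of Igf2r and Igf1r ran with a property of the libraries. Genes with a transcript of 6000 bases or more (1794 genes) were low against genes with transcripts of 1500 bases or less (4139 genes) in Q7-C replicate 1 and Q7-T replicate 2, by -0.84 and -1.27 in median centred log2 CPM, and by -0.222 in Q111-T replicate 2. In the other libraries the difference was between -0.005 and 0.502. Igf1r and Igf2r, whose longest transcripts have 11409 and 8887 bases, had their lowest value of the group in each of these 3 libraries. Igfbp7 and Igfbp6, at 1200 and 1112 bases, had their highest value of the group in them. The other long members did not follow in every group: Igf1 (7052 bases) was lowest of its group in Q7-C replicate 1 and Q7-T replicate 2 and highest in Q111-T replicate 2, and Igfbp5 (6006 bases) was lowest in Q7-C replicate 1 and highest in Q7-T replicate 2 and Q111-T replicate 2.

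**Figure D3:**
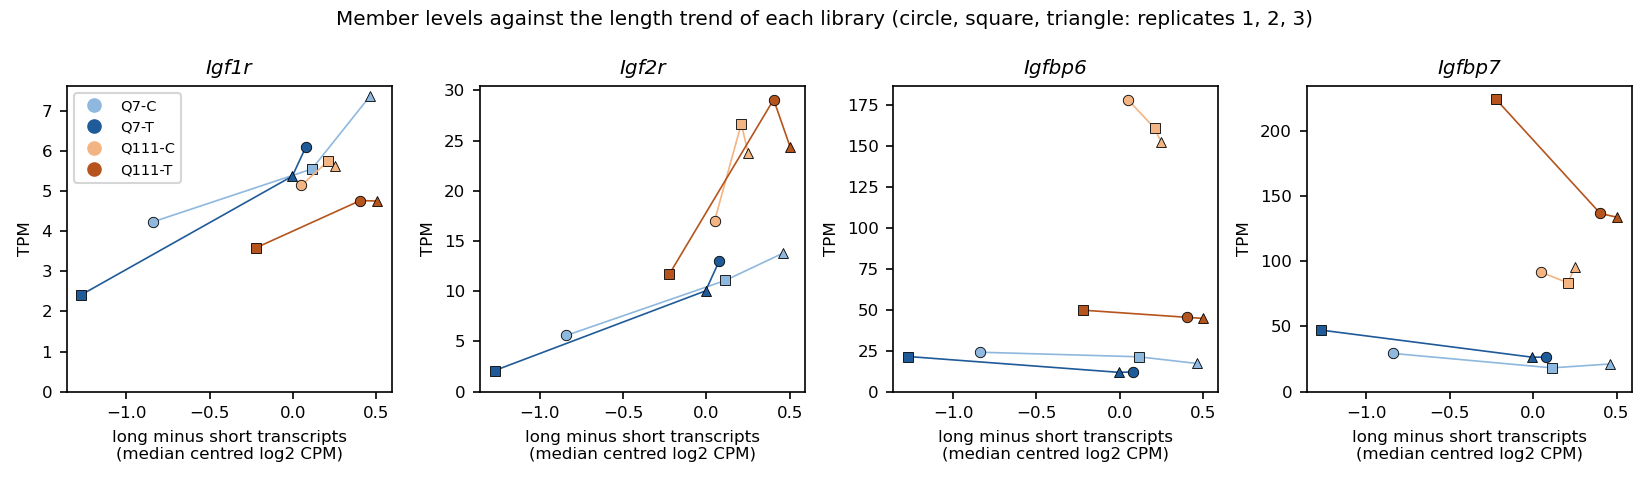
TPM of 4 members (vertical axes) in each library against the median centred log2 CPM of long minus short transcripts in that library (horizontal axes), with colours for the groups, shapes for replicates 1, 2 and 3, and lines joining the libraries of a group. The library of lowest horizontal position in Q7-C (-0.84), Q7-T (-1.27) and Q111-T (-0.222) has the lowest Igf1r and Igf2r and the highest Igfbp6 and Igfbp7 of its group.

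Among the carriers, Igfbp5 was the one found in STHdhQ7 and nearly lacking in STHdhQ111 cells. IGFBP5 binds extracellular matrix and is a common carrier in mesenchymal cells. Its level was 4.84, 7.08 and 9.29 TPM in Q7-C and 2.53, 5.15 and 2.78 TPM in Q7-T. In Q111-C it was 0.531, 0.177 and 0.129 TPM, and in Q111-T it was 0.1001, 0.209 and 0.0715 TPM, so that every Q7 library stood above every Q111 library. Igfbp5 fell in Q111-C vs. Q7-C by 4.93 on the log2 scale (SE 0.702, edgeR adjusted p = 3.43e-04), and in Q111-T vs. Q7-T by 5.26 (SE 0.724, edgeR adjusted p = 2.03e-04). Both calls held in all 26 alternatives, but their size moved. The first ran from -5.77 (without Q111-C replicate 1) to -2.63 (limma on log2(TPM + 1)). The second ran from -5.90 (without Q111-T replicate 2) to -1.95 (limma on log2(TPM + 1)). Neither treatment difference passed, with log2 fold changes of -0.63 in Q7 and -0.96 in Q111 (edgeR adjusted p = 0.704 and 0.389). Both values moved with the libraries: the former was -1.53 without the 2 libraries low in long transcripts, and the latter -0.11 without Q111-C replicate 1 and -1.65 without Q111-T replicate 2.

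Igfbp6, a carrier that prefers IGF2, was the highest carrier of nontreated STHdhQ111 cells. Its level was 24.1, 21.3 and 17.2 TPM in Q7-C, whereas in Q111-C it was 178, 161 and 152 TPM. After treatment it was 12.04, 21.5 and 11.8 TPM in Q7-T and 45.5, 49.8 and 44.7 TPM in Q111-T. The Q111-T libraries lay between those of Q111-C and all Q7 libraries, without overlap. Igfbp6 rose by 2.61 (SE 0.413, edgeR adjusted p = 7.24e-04) in Q111-C vs. Q7-C and fell by 1.70 (SE 0.3996, edgeR adjusted p = 0.0111) in Q111-T vs. Q111-C, and both calls held in all 26 alternatives. In Q111-T vs. Q7-T it was higher by 1.08 (SE 0.395, edgeR adjusted p = 0.0491), a call lost in 13 of 26 alternatives. It was lost without any 1 of Q7-C replicate 2, Q7-T replicates 1 and 3 and all Q111 libraries, at 0.82 to 1.18 with adjusted p-values of 0.0602 to 0.143. It was 1.83 (adjusted p = 1.52e-05) without both libraries low in long transcripts. The Q7 line gave -0.18 with treatment, and the difference between the responses of the lines was -1.52 (SE 0.555, edgeR adjusted p = 0.150). That difference passed in 6 of 25 alternatives, among them the limma fits and the fits that take out the length trend, and it was -0.82 (adjusted p = 0.158) without Q7-T replicate 2.

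Igfbp7, which binds IGFs weakly and insulin and is deposited around cells, was higher in STHdhQ111 cells in both conditions. Its level was 29.3, 18.3 and 21.3 TPM in Q7-C, whereas in Q111-C it was 91.6, 83.4 and 95.3 TPM. After treatment it was 26.5, 47.2 and 26.4 TPM in Q7-T and 137, 224 and 134 TPM in Q111-T. All Q111 libraries stood above all Q7 libraries, and all Q111-T libraries above Q111-C. The log2 fold change was 1.59 (SE 0.458, edgeR adjusted p = 0.0269) in Q111-C vs. Q7-C and 1.79 (SE 0.461, edgeR adjusted p = 0.0102) in Q111-T vs. Q7-T. The first was lost in 4 of 26 alternatives, the fits without Q7-C replicate 2 (1.42, adjusted p = 0.0932), Q7-C replicate 3 (1.48, 0.0843), Q111-C replicate 1 (1.60, 0.0610) or Q111-C replicate 3 (1.59, 0.0632). The second held in all 26, from 1.39 without Q111-T replicate 2 to 2.53 without the 2 libraries low in long transcripts. The increase of 1.01 in Q111-T vs. Q111-C did not pass (SE 0.451, edgeR adjusted p = 0.160), and neither did 0.81 in Q7-T vs. Q7-C (adjusted p = 0.452). The former passed in a fit of the Q111 libraries alone (adjusted p = 0.0180), without Q7-T replicate 2 (0.0364) and without the 2 libraries low in long transcripts (0.00648). Both values depended on the library of highest Igfbp7: the former was 0.57 (adjusted p = 0.510) without Q111-T replicate 2, and the latter was 0.11 (adjusted p = 0.944) without Q7-T replicate 2 and 1.25 (adjusted p = 0.205) without Q7-C replicate 1.

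Igfbp3, the main IGF carrier of plasma, answered the treatment in STHdhQ7 cells. Its level was 5.11, 4.11 and 4.64 TPM in Q7-C and 35.7, 13.9 and 30.5 TPM in Q7-T. In STHdhQ111 cells it was 17.3, 18.5 and 16.1 TPM without and 19.1, 20.7 and 17.1 TPM with treatment. All Q7-T libraries stood above those of Q7-C, the lowest being replicate 2, and the Q111 groups overlapped each other.

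Igfbp3 rose by 2.60 (SE 0.247, edgeR adjusted p = 4.04e-05) in Q7-T vs. Q7-C, which is 6.07-fold, and by 1.55 (SE 0.239, edgeR adjusted p = 6.12e-04) in Q111-C vs. Q7-C. Treatment of Q111 cells gave a log2 fold change of 0.25 (SE 0.233, adjusted p = 0.546), or 0.059 without Q111-T replicate 2. The interaction, that is the response of Q111 minus the response of Q7, was -2.35 (SE 0.334, edgeR adjusted p = 0.00214), so that the fold change with treatment was 5.10 times smaller in STHdhQ111 cells. Igfbp3 was the 1 member called lower in the interaction, with 0 called higher, against 1.2% and 3.52% of all genes tested. For the count of 0, edgeR gave an unadjusted p under 0.05 for 1 higher member (Igfbp4), DESeq2 called 0 and limma 1 (Igf1). These 3 calls of Igfbp3 held in all alternatives. In Q111-T vs. Q7-T Igfbp3 was lower by 0.80 on the log2 scale (SE 0.234, edgeR adjusted p = 0.0189), which is less than 2-fold, and the groups overlapped through Q7-T replicate 2.

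Igfbp4, a carrier that holds IGF away from its receptor until the protease PAPP-A cleaves it, was lower with treatment in STHdhQ7 cells. Its level was 2.48, 2.38 and 2.51 TPM in Q7-C and 0.696, 0.692 and 0.636 TPM in Q7-T. It was 4.29, 4.15 and 4.32 TPM in Q111-C and 2.92, 2.33 and 2.30 TPM in Q111-T. Treated libraries lay below nontreated libraries in both lines. Igfbp4 fell by 1.64 (SE 0.263, edgeR adjusted p = 0.00245) in Q7-T vs. Q7-C, and the adjusted p was 0.0630 in a fit of only these groups. In Q111-T vs. Q111-C the log2 fold change was -0.65 (SE 0.255, edgeR adjusted p = 0.106), and the difference between the responses was 0.99 (SE 0.362, adjusted p = 0.151), which passed in the 2 of 25 alternatives that leave out Q7-T replicate 2, alone (1.27, adjusted p = 0.0215) or with Q7-C replicate 1 (1.14, adjusted p = 0.0123). Between the lines it was higher by 1.44 (SE 0.261, edgeR adjusted p = 0.00129) in Q111-T vs. Q7-T in all 26 alternatives. The 0.45 of Q111-C vs. Q7-C did not pass (adjusted p = 0.249) although the TPM did not overlap.

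Igfbp2, a carrier of the developing nervous system, was the lowest carrier of treated STHdhQ111 cells apart from Igfbp5. Its level was 3.75, 2.34 and 2.71 TPM in Q7-C and 1.4997, 2.89 and 2.65 TPM in Q7-T. It was 3.86, 4.90 and 5.78 TPM in Q111-C and 1.30, 1.53 and 0.673 TPM in Q111-T. The Q111-T libraries lay below those of Q111-C, while the Q7 groups overlapped.

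Igfbp2 fell by 1.90 (SE 0.496, edgeR adjusted p = 0.0196) in Q111-T vs. Q111-C, and the log2 fold change was -1.47 (SE 0.491, edgeR adjusted p = 0.0349) in Q111-T vs. Q7-T. The first call was lost in 3 of 26 alternatives, without Q111-C replicate 3 (-1.78, adjusted p = 0.0611), Q111-T replicate 1 (-1.94, 0.0590) or Q111-T replicate 3 (-1.63, 0.0698). The second was lost in 13, among them those without Q7-T replicate 2 or 3, Q111-C replicate 2, or Q111-T replicate 1 or 3, at -1.52 to -0.97 with adjusted p-values of 0.0521 to 0.124. In Q7 cells treatment gave -0.09, and the difference between the responses was -1.81 (SE 0.683, edgeR adjusted p = 0.163). Igfbp2 has 36 to 408 estimated counts per library, fewer than any other carrier of STHdhQ111 cells except Igfbp5.

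As a pool, the transcripts of the 6 carriers summed to 60.9 ± 7.62 TPM in Q7-C, 81.7 ± 8.56 TPM in Q7-T, 280.7 ± 13.3 TPM in Q111-C and 234 ± 55.9 TPM in Q111-T (SD, n = 3). The lowest Q111 library held 199 TPM and the highest Q7 library 91.3 TPM. In Q7-C the pool was split between Igfbp7 (37.3 ± 4.62%) and Igfbp6 (34.3 ± 4.27%), with Igfbp5 at 11.9 ± 4.64% and Igfbp3 at 7.59 ± 0.392%. In Q7-T the share of Igfbp3 was 33.7 ± 16.2%, with 45.2% as its highest and 15.2% as its lowest value, and that of Igfbp6 was 18.2 ± 4.65%.

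In Q111-C, Igfbp6 held 58.4 ± 2.44% of the pool, Igfbp7 32.1 ± 2.31% and Igfbp5 0.0973 ± 0.0718%. In Q111-T, Igfbp7 held 69.6 ± 4.70% and Igfbp6 20.4 ± 3.26%. The shares of Igfbp6 in the 3 Q111-C libraries (55.6 to 60.3%) and the 3 Q111-T libraries (16.7 to 22.5%) did not overlap, nor did those of Igfbp7. The share of Igfbp3 was 6.17 ± 0.545% in Q111-C and 8.29 ± 1.22% in Q111-T. Shares are parts of 1 sum, so that a rise of one carrier lowers the share of the others.

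**Figure D4:**
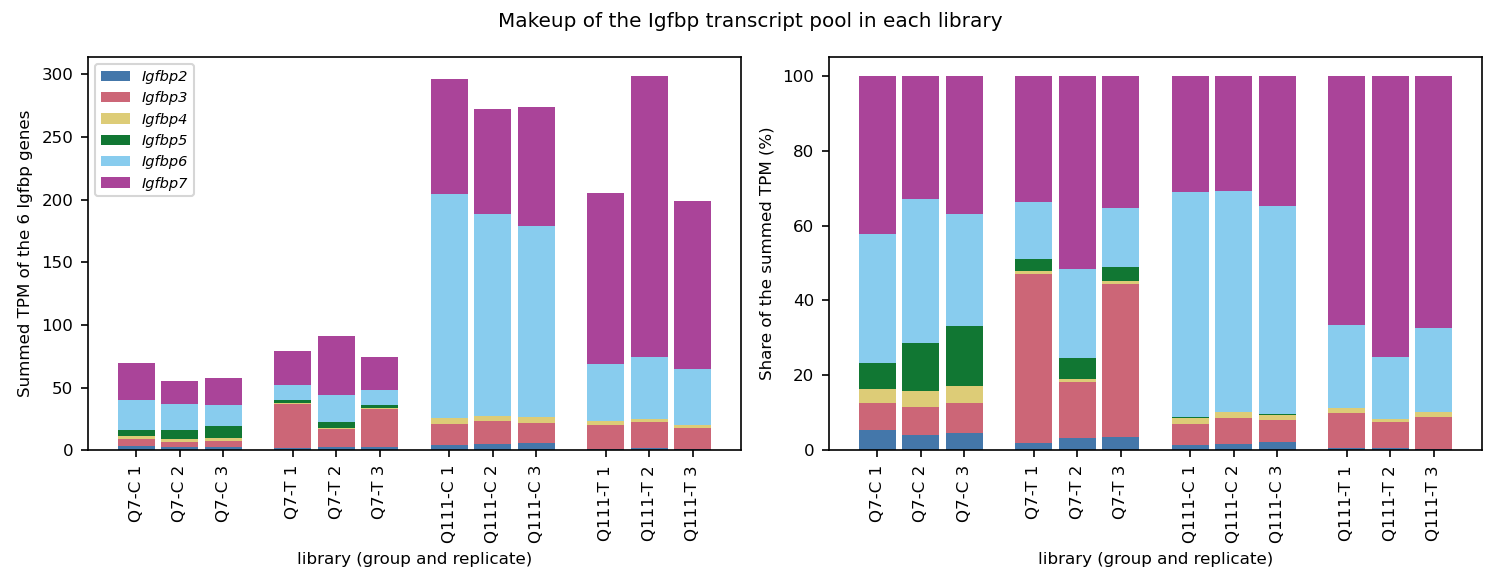
Summed TPM of Igfbp2 to Igfbp7 (left) and each gene's percentage of that sum (right) in the 12 libraries, stacked by gene. The Q111 libraries hold between 199 and 299 TPM and the Q7 libraries at most 91.3 TPM, and Igfbp6 takes 55.6 to 60.3% in Q111-C.

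TPM and the fitted fold changes do not share a scale. On the TPM scale the median log2 fold change of all genes tested was 0.27 between the nontreated lines (Q111 against Q7), 0.34 between the treated lines, -0.16 with treatment in Q7 and -0.10 with treatment in Q111, while it was between -0.03 and 0.00 in the edgeR fit with TMM scaling. A higher TPM in Q111 libraries is thus to be read against this shift, as for Igfbp4 and Igfbp2 in nontreated cells, whose TPM did not overlap between the lines and whose fitted changes did not pass.

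The promoters of all 10 members, called with treatment or not, were searched for a few known motifs. Windows of 250 bases before to 50 after the start of each gene were taken from RefSeq (GRCm38.p6), which held 14 windows for all 10 members among 32851. Both strands were read for the interferon-stimulated core GAAANNGAA, the TATA box TATAAA and the NF-kB site. Matches were present in 8.56%, 13.6% and 4.51% of all windows, respectively. The windows of Igfbp3, Igfbp2, Igf1 and Igfbp7 held none of these letters, that of Igfbp4 held a TATA box at -28, that of Igfbp5 an NF-kB match at -196, that of Igfbp6 a TATA match on the reverse strand at -148, and 1 of the Igf2 windows an interferon-stimulated core at 27. The 250 bases before the start are shown for the members with a treatment difference in Q7 cells (Igfbp3 and Igfbp4) and for the carrier with the highest level in Q111-C (Igfbp6), with the matches in capitals. They lie at chr11:7213924-7214173 (minus strand), chr11:99040994-99041243 (plus strand) and chr15:102143936-102144185 (plus strand). For Igfbp6 the RefSeq start lies upstream of the gene start given above, so that this stretch ends before the latter. The Igf1 window (chr10:87860861-87861160) lies inside the gene as given above.
Igfbp3: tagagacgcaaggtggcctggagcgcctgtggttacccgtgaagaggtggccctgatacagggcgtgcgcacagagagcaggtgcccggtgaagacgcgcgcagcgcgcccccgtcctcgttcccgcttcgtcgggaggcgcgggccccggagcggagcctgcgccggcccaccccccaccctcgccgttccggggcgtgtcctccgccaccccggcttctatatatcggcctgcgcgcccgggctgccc
Igfbp4: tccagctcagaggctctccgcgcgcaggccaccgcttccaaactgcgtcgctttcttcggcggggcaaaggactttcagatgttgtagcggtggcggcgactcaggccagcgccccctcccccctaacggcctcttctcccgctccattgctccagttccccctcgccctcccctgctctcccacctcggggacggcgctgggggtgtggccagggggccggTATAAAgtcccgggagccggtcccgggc
Igfbp6: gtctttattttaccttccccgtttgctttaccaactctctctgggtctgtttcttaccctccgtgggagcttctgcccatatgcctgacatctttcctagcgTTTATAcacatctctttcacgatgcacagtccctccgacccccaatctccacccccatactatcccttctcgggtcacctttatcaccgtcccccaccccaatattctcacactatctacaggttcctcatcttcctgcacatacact
Their windows also differ in base composition, with 71.7% G and C for Igfbp3, 71.3% for Igfbp4 and 49.7% for Igfbp6, where the median of all windows was 52.7%. A match is a run of letters and not a site of binding.

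The proteases that free IGF from its carriers and their inhibitors were followed as a list of 6 genes, of which 4 were tested. In Q111-C vs. Q7-C 1 was higher and 2 lower, against 7.62% and 7.61% of all genes tested. The counts of this and the following lists are to be read against such shares. They were 13.3% (higher) and 11.2% (lower) between the treated lines and 2.93% and 1.11% with treatment in Q7. With treatment in Q111 they were 8.28% and 2.96%, and in the interaction 3.52% and 1.2%. Pappa, the protease that cleaves IGFBP4, was at 0.310 ± 0.166 TPM in Q7-C against 4.21 ± 0.524 TPM in Q111-C (SD, n = 3), an increase of 3.52 on the log2 scale (edgeR adjusted p = 1.21e-04). Pappa passed the filter only through Q111 libraries, so this direction was built into its passing. Adam12, a protease reported to cleave IGFBP3 and IGFBP5, was at 3.98 ± 1.99 TPM in Q7-C against 0.136 ± 0.0536 TPM in Q111-C and fell by 5.11 (edgeR adjusted p = 2.68e-06).

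Between the treated lines the list again gave 1 higher (Pappa, 2.68) and 2 lower genes, with Stc2, an inhibitor of PAPP-A, at the lower end (-2.07, edgeR adjusted p = 3.01e-04). Treatment gave 0 calls in Q7, where edgeR had 0 genes at an unadjusted p under 0.05 and DESeq2 and limma called 0, and 2 higher genes in Q111, Adam12 (3.75, edgeR adjusted p = 1.97e-05) and Stc2 (1.55, edgeR adjusted p = 0.00368), the latter lost in limma with a pseudocount of 0.5 or 1. The interaction called Adam12 alone (4.04, SE 0.466, edgeR adjusted p = 7.02e-04). The median log2 fold changes of the 4 genes were -1.35, -0.59, 0.15 and 0.55 in the 4 pairwise comparisons, beside -0.02, -0.03, 0.00 and 0.00 for all genes tested.

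Other carriers and proteins with an IGFBP-like domain made a list of 12 genes, 8 of them tested. Igfbp1 and Igfals, the liver carriers, were at or under 0.121 TPM in every library. In Q111-C vs. Q7-C 2 were higher and 2 lower, with Kazald1 (1.93, edgeR adjusted p = 0.00103) and the BMP-binding Crim1 (-1.62, edgeR adjusted p = 0.00301) at the ends. The latter was lost in the 3 limma fits (adjusted p of up to 0.0979). Between the treated lines 2 were higher and 2 lower, with Ccn6 (2.49) and Ccn5 (-2.53) at the ends (edgeR adjusted p = 0.0391 and 2.64e-05), the former lost in 11 of 25 alternatives. Ccn6 passed the filter only through the Q111-T libraries, so a higher level there was built into its passing. In Q7-T vs. Q7-C 2 were lower, the matricellular genes Ccn2 (-1.66) and Ccn3 (-1.07), with edgeR adjusted p-values of 0.00169 and 0.00760. In a fit of only the Q7 libraries both were lost (adjusted p = 0.0574 for Ccn2 and 0.0646 for Ccn3), and Ccn3 was also lost without Q7-T replicate 2, alone or with Q7-C replicate 1.

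In Q111-T vs. Q111-C 1 was higher (Crim1, 1.24, edgeR adjusted p = 0.0167) and 3 lower, with Ccn5 at the end (-3.04, edgeR adjusted p = 1.08e-05). The call of Crim1 was lost in 7 of 26 alternatives, the 3 limma fits and the fits without Q111-C replicate 1 or 3 or Q111-T replicate 1 or 3, with adjusted p-values of 0.0545 to 0.157. Ccn5 was at 12.4 ± 1.98 and 13.3 ± 1.21 TPM in Q7-C and Q7-T, and at 27.6 ± 1.45 and 3.13 ± 0.456 TPM in Q111-C and Q111-T, and its interaction was -3.32 (SE 0.359, edgeR adjusted p = 4.43e-04). Ccn1 was called higher in the interaction (1.08, edgeR adjusted p = 0.0315), a call lost in 15 of 25 alternatives. The medians of the list were -0.42, 0.29, -0.64 and -0.64 in the 4 pairwise comparisons.

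Downstream of the receptors, the insulin receptor family and proximal signalling made a list of 22 genes, of which 20 were tested. In Q111-C vs. Q7-C, 1 was higher and 2 lower, against 7.62% and 7.61% of all genes tested. At the ends were the inhibitory adaptor Grb10 (1.08, edgeR adjusted p = 0.00214) and the receptor substrate Irs2 (-1.93, edgeR adjusted p = 6.39e-04). Grb10 fell just under 2-fold without Q7-C replicate 1, alone or with Q7-T replicate 2 (down to 0.97). Between the treated lines 2 were higher and 2 lower, against 13.3% and 11.2% of all genes tested. At the ends were the PI3-kinase subunit Pik3r3 (1.82) and the receptor substrate Irs1 (-2.03), with edgeR adjusted p = 3.19e-04 and 4.10e-05. Treatment gave 0 calls in Q7, where edgeR had 3 genes at an unadjusted p under 0.05 and DESeq2 and limma called 0, and 2 lower genes in Q111, Grb10 (-1.59, edgeR adjusted p = 2.01e-04) and Irs1 (-1.46, edgeR adjusted p = 6.72e-04). The medians of the list lay between -0.14 and 0.09.

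Of 10 FOXO factors and targets, which AKT holds in check, 3 were higher and 1 lower in Q111-C vs. Q7-C, against 7.62% and 7.61% of all genes tested. The ends were Sesn3 (1.80) and Foxo6 (-3.04), with edgeR adjusted p-values of 3.26e-04 and 8.68e-04. After treatment 3 were higher and 2 lower in Q111 cells, against 13.3% and 11.2%, again with Sesn3 (1.57) and Foxo6 (-2.99) at the ends. Foxo3 was the 1 gene of the list called by edgeR with treatment, higher in Q111-T vs. Q111-C by 1.98 (edgeR adjusted p = 0.00122), where DESeq2 also called 1 gene lower, and Q7 gave 0 calls, with 3 genes at an unadjusted p under 0.05 in edgeR and 0 calls by DESeq2 and limma. The medians were 0.41, 0.26, 0.18 and 0.04 in the 4 pairwise comparisons.

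Of the 3 Igf2 mRNA-binding proteins, Igf2bp1 was higher in Q111-C vs. Q7-C (1.02, edgeR adjusted p = 0.00189), a call lost in 4 of 26 alternatives at 0.89 to 0.94, which is under 2-fold: without Q7-C replicate 1, alone or with Q7-T replicate 2, and with the length correction without and with the block. The other pairwise comparisons gave 0 calls, with 2 values at an unadjusted p under 0.05 in edgeR and 0 calls by DESeq2 and limma. Of the 10 genes of mannose 6-phosphate trafficking, which serve the same route as Igf2r, Gga2 was higher in Q111-C vs. Q7-C (1.10, edgeR adjusted p = 3.03e-04). In that comparison 7.62% of all genes tested were called higher. There were 0 calls in the other pairwise comparisons, with 7 values at an unadjusted p under 0.05 in edgeR, 0 calls by DESeq2 and 1 by limma.

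Imprinted genes, to which Igf2 and Igf2r belong, made a list of 10 genes. Of these 7 were tested, with 4 higher and 1 lower in Q111-C vs. Q7-C, against 7.62% and 7.61% of all genes tested. Between the treated lines 4 were higher and 1 lower, against 13.3% and 11.2%. The long noncoding RNA Meg3 was higher by 7.75 between nontreated and 4.499 between treated lines, at mean levels of 0.00310 TPM in Q7-C and of 0.942 TPM in nontreated Q111 cells, and the log2 fold changes of Ndn were -2.46 and -3.35 (edgeR adjusted p between 1.07e-06 and 0.00132). The Q7 levels of Meg3 rest on few reads, so the size of its fitted change is uncertain, and limma on log2(TPM + 1) lost both calls (0.95 and 0.26), as did limma on log2(TPM + 0.5) between the treated lines (0.47). It passed the filter only through Q111-C, so that a higher level in Q111 cells was built into its passing. Mest fell with treatment in Q7 (-1.54, edgeR adjusted p = 0.00329) and in Q111 (-2.40, edgeR adjusted p = 5.23e-05). The call in Q7 was lost in a fit of only the Q7 libraries (adjusted p = 0.115) and in limma on log2(TPM + 1), at -0.93. Airn, which is transcribed across part of Igf2r on the opposite strand, was at 0.493 ± 0.260 TPM in Q7-C against 0.972 ± 0.0676 TPM in Q111-C, a difference that did not pass (0.72, edgeR adjusted p = 0.250), and it was higher by 1.17 between the treated lines (edgeR adjusted p = 0.0423). The medians of the 7 genes were 2.09, 1.17, 0.01 and -0.89 in the 4 pairwise comparisons.

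**Figure D5:**
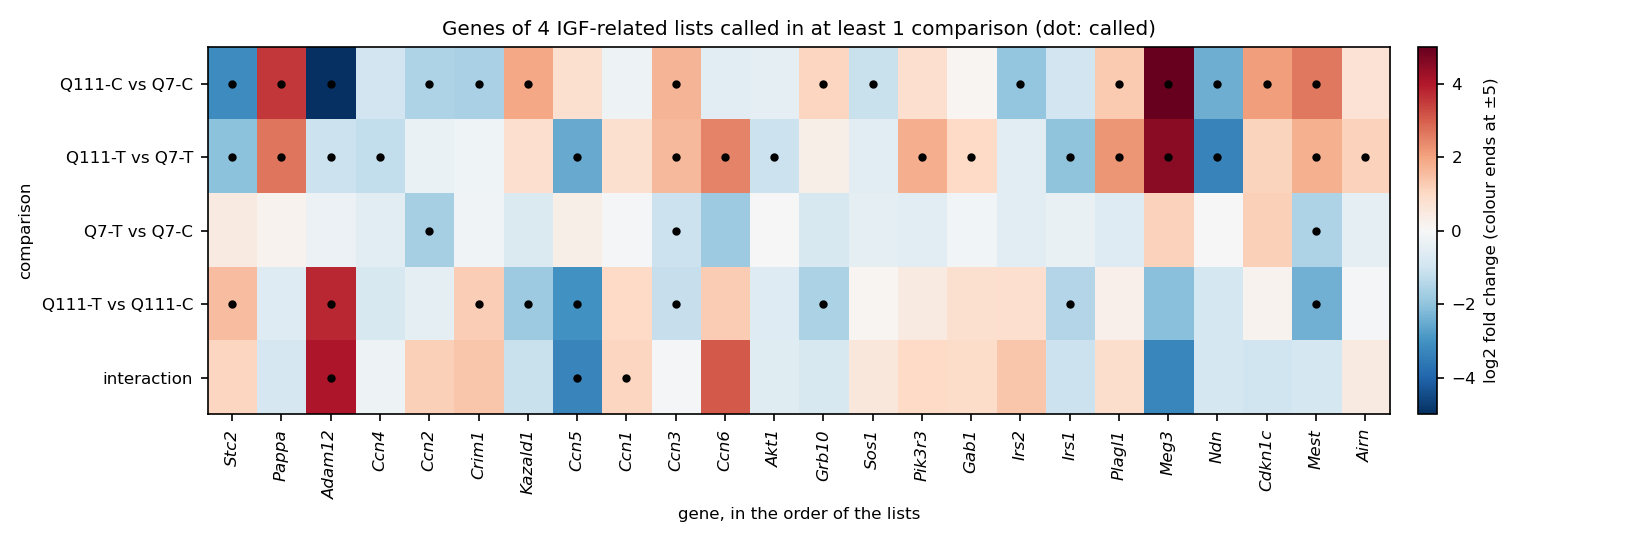
Log2 fold change by colour for the 24 genes of 4 lists (proteases and inhibitors, other carriers, insulin receptor signalling, imprinted genes) that were called in at least 1 of the 5 comparisons, with a dot where the gene was called. Adam12 and Ccn5 have dots in the interaction and changes of opposite sign in it (4.04 and -3.32).

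The 3 genes whose profile over the 12 libraries lay closest to each member were found by the root mean square distance of centred log2 CPM, given as a description of libraries that share groups and depth. Closest to Igfbp3 were Rnf122 (0.503), Bcl3 (0.51), an NF-kB cofactor, and Socs3 (0.544), a feedback inhibitor of cytokine signalling. Closest to Igfbp4 were Fam20a (0.242), Mtus2 and P2rx5, and closest to Igfbp2 were S100a4 (0.371), Fbxo36 and Particl. Igfbp6 was closest to Hrct1 (0.357), Cela1 and Kazald1 (0.382), the last of which is on the list of related carriers. Igfbp5 was closest to Hcrtr1 (0.412), Cldn9 and Tagln (0.514), a smooth muscle gene.

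Igfbp7 was closest to Gm3164 (0.366), Gm8797 and Mgst2, and Igf1 to Chrdl1 (0.857), Adra1d and Hook1. Igf1r was closest to D10Wsu102e (0.099), Setd3 and Minpp1, and Igf2r to Gm4864 (0.189), Phf8 and Kif24. No member was among the 3 genes closest to another. Among the members the shortest distance was that of Igf1r and Igf2r (0.816), followed by Igfbp4 and Igfbp6 (0.817), and Igf1 was nearest to Igfbp5 (1.30).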

How the data were processed

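Poly(A) RNA of both cell lines was sequenced from stranded libraries with paired reads. The authors trimmed reads with Cutadapt, mapped them with HISAT2 to GRCm38 and assembled and quantified transcripts using StringTie and Ballgown. Their deposited table holds TPM values, scaled by them for length and depth, and estimated counts, which the authors gave as whole numbers without normalization. TPM of the genes in the table summed to between 688352 and 719623 per library.

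From these, members were read by gene name. Genes that did not reach 0.5 TPM in 3 libraries were left out, and the remaining estimated counts were scaled by TMM and tested with the quasi-likelihood test of edgeR 4.0.16 in R 4.3.3, with all 12 libraries in 1 fit and 1 mean per group. P-values were adjusted by Benjamini-Hochberg over all 16127 genes. Calls needed a 2-fold difference or more besides an adjusted p under 0.05, as in the study. Standard errors were derived from the F statistic. The members, the lists and the comparisons were chosen with earlier results of these data known. Named were all members, the called list genes with the largest and smallest change per comparison, and the 3 genes most like each member. Outside this rule, Airn was named as a gene that overlaps Igf2r, and Igfbp1 and Igfals for their levels. The plot of related genes shows all called genes of 4 lists.

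Alternatives were 2 other scalings, 2 filters, DESeq2 (1.42.0), limma (3.58.1) on log2(TPM + 0.5), log2(TPM + 0.1) and log2(TPM + 1), counts divided by 4, only the groups compared, a replicate block, no minimum fold and each library left out. A correction for transcript length, alone or with the block, and leaving out the 2 libraries low in long transcripts were chosen after seeing the data. The procedure was also run on simulated counts, whose outcome is not given here and on which no value here rests. Libraries were compared in pairs by a chi-square of their counts, with a lowest value per degree of freedom of 5.26, so none was counted as a repeat. Reads carry no molecular identifiers, and no intervals for counting error are given. Sequences are from RefSeq and GENCODE M21. A gene of the treatment check and a promoter motif are not reported here. Figures were drawn with matplotlib 3.10.9.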

Additional observations from a re-analysis of the deposited data

Results flagged for a closer look

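The response of Igfbp3 to IFNγ/LPS differed between the cell lines by a test of the difference itself. The interaction was -2.35 on the log2 scale (SE 0.334, quasi-likelihood test of edgeR, Benjamini-Hochberg adjusted p = 0.00214). All 3 Q7-T libraries (13.9 to 35.7 TPM) lay above the Q7-C libraries (4.11 to 5.11 TPM), and the Q111-T libraries (17.1 to 20.7 TPM) overlapped those of Q111-C (16.1 to 18.5 TPM). The value lay between -2.74 and -2.08 over 25 alternatives, with an adjusted p of at most 0.0121.

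The same test set apart 3 genes of the related lists. The interaction was 4.04 for the protease Adam12 (SE 0.466, edgeR adjusted p = 7.02e-04), lost in 1 of 25 alternatives, limma on log2(TPM + 1). It was -3.32 for Ccn5 (SE 0.359, edgeR adjusted p = 4.43e-04), which held in all 25. It was 1.08 for Ccn1 (SE 0.256, edgeR adjusted p = 0.0315), lost in 15 of 25, with an adjusted p of up to 0.191.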

How the results depend on the processing

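Of 45 member log2 fold changes under 25 or 26 alternatives each, 1059 values kept direction and side of the threshold, 39 lost their call, 24 gained one and 39 changed sign. Members called in Q111-T vs. Q7-T numbered 3 in place of 6 in a fit of only the groups compared, and 3 to 6 when a library was left out (3 without Q111-T replicate 3). In Q111-T vs. Q111-C they numbered 1 to 3 when a library was left out (1 without Q111-C replicate 3, Q111-T replicate 1 or Q111-T replicate 3). In the interaction they numbered 3 in place of 1 under limma with each of the 3 pseudocounts, 2 with the length correction, 2 with the length correction and block, 3 without the 2 libraries low in long transcripts, and 1 to 2 when a library was left out (2 without Q7-T replicate 2). The cause was not tested. With the replicate block, 5, 5, 2, 2 and 1 members were called between the nontreated lines, between the treated lines, with treatment in Q7, with treatment in Q111 and in the interaction, and the 1 call lost was that of Igfbp2 in Q111-T vs. Q7-T (adjusted p = 0.0519). Same-numbered libraries correlated between -0.416 and 0.303 in their deviations from group means, which cannot show whether they share a culture or a batch. Sign changes were of uncalled values: Igf1r in Q111-T vs. Q7-T 0.0090 (limma, 0.1), with treatment in Q7 0.019 and 0.026 (length correction, without and with block), and in the interaction 0.020, 0.029 and 0.013 (limma, 0.5, 0.1 and 1). Igf2r in Q111-T vs. Q111-C was -0.064 (upper quartile), -0.0016 (1 TPM filter), -0.12, -0.13 and -0.12 (limma, 0.5, 0.1 and 1), -0.064 (replicate block), -0.047 and -0.088 (length correction, without and with block). Igfbp5 in the interaction was 0.65, 0.38 and 0.68 (limma, 0.5, 0.1 and 1) and 0.58 without the 2 libraries low in long transcripts. When a library was left out, values that crossed 0 ran with treatment in Q7 from -0.54 to 0.20 (Igf2r), -0.57 to 0.35 (Igfbp2) and -0.88 to 0.13 (Igfbp6), with treatment in Q111 from -0.23 to 0.24 (Igf2r), and in the interaction from -0.24 to 0.044 (Igf1r), -0.18 to 0.56 (Igf2r), -1.01 to 0.53 (Igfbp5) and -0.24 to 0.89 (Igfbp7). Of 36 values of named list genes, which leave out Airn, 13 lost their call in at least 1 alternative and 0 changed sign. The values of Igf1 and Igfbp5 in Q111 and of Igf2 everywhere rest on few or no counts, and the part of depth in this was not tested.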
